A study of Mus musculus with 5 samples.

Results

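Transcripts of 33 genes of glycolysis and of the hypoxia response were examined in 5 RNA-sequencing libraries of the Lewis lung carcinoma (LLC) model, a transplantable lung cancer line of C57BL/6 mice. The genes were taken by symbol from a list of glycolytic enzymes, glucose and lactate transporters, oxygen sensors and known targets of the hypoxia-inducible factors. All 33 of 33 were found among the 13979 gene symbols shared by the 3 deposited tables used here. Each library stands for 1 group, namely Control, BMN, PAZA, BMN/PAZA low dose and BMN/PAZA high dose, with 1 library per group. BMN is BMN673, an inhibitor of the DNA repair enzyme PARP. PAZA is a polymer that carries azacytidine, an inhibitor of DNA methyltransferases, and it serves as the carrier of BMN673 in both BMN/PAZA groups. The text of the publication names doses of 0.25 and 2 mg/kg of both drugs for its tumor studies, whereas the labels give no amount. The treatment field of the labels attaches the words low and high to BMN, and the sample titles attach them to BMN/PAZA. The methods describe tumors of female C57BL/6 mice aged 4 to 6 weeks that received an intravenous injection every 3 days, while the labels describe cultured LLC cells treated for 72 h with a tissue named Lung. The number of tumors or cultures behind a library was not given. With 1 library per group and no read counts, the depth is unknown, no difference below could be tested, and no value has an error.

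Glycolysis splits glucose into pyruvate, and in most tumors much of that pyruvate is reduced to lactate and exported even where oxygen is present. When oxygen is short, the prolyl hydroxylases EGLN1 and EGLN3 no longer mark the factors HIF1A and EPAS1 for degradation. The factors then bind the hypoxia response element of their targets, which include most glycolytic enzymes, the glucose transporter SLC2A1 and the angiogenic factor VEGFA. HIF1A is controlled mostly at the level of the protein, which RNA libraries do not measure.

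A level here is a deposited FPKM value rescaled so that each library sums to 1000000 over the shared symbols. Differences are of log2(level + 1), which understates the change of genes of low level. A gene was compared where its level reached 1 in either library, and it was counted as 2-fold higher or lower where that difference reached 1 in size. Since each table held only 2 groups and had been scaled on its own, levels of libraries from different tables are put side by side only through this rescaling. The same library was listed in more than 1 table, and its values there differed by a constant factor, from which only 1.45% to 2.44% of genes departed (by over 0.5%) in the pairs of tables that share the low dose or PAZA. PFKP and HIF1A were off that constant: the low dose value of each was exactly 2 times higher, relative to the constant, in the table with BMN than in the table with the high dose, which is used here. Their PAZA values in the table with Control were 0.836 (PFKP) and 1.21 (HIF1A) times those in the table with the low dose, relative to the constant. ALDOA was listed at 0 for BMN in both tables that hold BMN. The low dose of ALDOA was also at 0 in the table it shares with BMN, but it was 944.975 FPKM in the table shared with the high dose and 276.877 FPKM in the table shared with PAZA, which is the constant of 0.293 between those tables for this library. The GENCODE annotation of GRCm38 holds 2 records named Aldoa, at chr7:126795234-126800751 and chr7:126800790-126809108, both on the minus strand. Whether the zeros come from reads assigned to the other record was not tested, so no fold is given for ALDOA in BMN.

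The libraries also differed in markers of other cell types, and in bulk RNA fewer cells of a type and less RNA per cell cannot be told apart. The summed level of 5 of 5 skeletal muscle markers found was 7.88 in Control, 165 in BMN, 52.5 in PAZA, 11.2 at the low dose and 184 at the high dose. That of 3 epidermal keratins was 57.3, 158, 6.93, 1.85 (KRT5 at 0) and 11.2 in the same order. That of 5 fibroblast markers was 297, 774, 506, 296 and 330, so BMN was the library with the most fibroblast and keratin RNA. The 5 neutrophil markers summed to between 64.6 in BMN and 233 at the high dose, the 6 leukocyte markers to between 169 and 302, the 6 macrophage markers to between 319 and 459, the 5 endothelial markers to between 35.9 and 61.5, and the 5 proliferation markers to between 800 and 1045. Of the adipocyte and erythroid lists, 3 of 4 and 2 of 5 genes were found, with sums of 44.5 to 104 and of 2.13 to 3.86. None of the 4 lung epithelium markers was among the shared symbols, and all 4 were listed at 0 for BMN and the low dose in the table of that pair, where ALDOA was also at 0, so these markers do not check the label Lung. The 3 RNAs MT-RNR1, MT-RNR2 and RN7SK together held between 29.4% (BMN) and 38.1% (high dose) of a library.

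The promoters of the genes were read for the core of the hypoxia response element, ACGTG or GCGTG on either strand, in windows from 250 bases before to 50 bases after a RefSeq start (GRCm38.p6). A window was given for 29 of the 33 genes, and 27 of these 29 held a core in at least 1 window, against 64.9% of the 10753 shared symbols with a window. Per window, 32 of 41 (78.0%) held a core, against 43.8% of all 32851 windows of the same length. The latter come from all 27025 genes with a window, not only the shared symbols, so this contrast is of unlike sets. The list was also made of known targets among others, so its share of cores is not an independent result. A core is a match of 5 letters and not a measured binding site. The windows of the 4 genes with the widest range of levels and at least 1 core are shown, 5′ to 3′ on the strand of the gene, with the cores of either strand in capitals. They lie at chr7:126799205-126799504 for ALDOA (minus strand), chr7:138909457-138909756 for BNIP3 (minus strand), chr4:119108495-119108794 for SLC2A1 (plus strand) and chr10:62340372-62340671 for HK1 (minus strand). The windows of HK1 (1 of 2) and ALDOA (1 of 3) lie inside the annotated genes, the former of which spans chr10:62268855-62379908.
ALDOA: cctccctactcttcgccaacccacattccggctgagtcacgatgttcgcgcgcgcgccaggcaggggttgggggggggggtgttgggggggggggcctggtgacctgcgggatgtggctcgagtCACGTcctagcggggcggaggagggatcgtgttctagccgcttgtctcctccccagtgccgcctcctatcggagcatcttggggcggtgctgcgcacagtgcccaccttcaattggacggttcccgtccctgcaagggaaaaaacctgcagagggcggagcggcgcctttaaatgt
BNIP3: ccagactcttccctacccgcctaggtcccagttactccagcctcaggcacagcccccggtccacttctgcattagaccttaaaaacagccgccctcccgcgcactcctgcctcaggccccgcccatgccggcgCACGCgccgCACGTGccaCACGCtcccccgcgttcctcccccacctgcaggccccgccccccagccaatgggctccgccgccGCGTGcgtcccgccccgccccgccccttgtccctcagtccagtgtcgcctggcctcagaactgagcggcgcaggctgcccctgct
SLC2A1: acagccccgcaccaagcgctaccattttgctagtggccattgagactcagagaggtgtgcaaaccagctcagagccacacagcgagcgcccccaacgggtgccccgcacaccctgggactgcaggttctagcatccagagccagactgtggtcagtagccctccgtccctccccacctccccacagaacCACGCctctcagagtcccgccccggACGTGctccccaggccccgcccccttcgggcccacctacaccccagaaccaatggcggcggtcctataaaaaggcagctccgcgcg
HK1: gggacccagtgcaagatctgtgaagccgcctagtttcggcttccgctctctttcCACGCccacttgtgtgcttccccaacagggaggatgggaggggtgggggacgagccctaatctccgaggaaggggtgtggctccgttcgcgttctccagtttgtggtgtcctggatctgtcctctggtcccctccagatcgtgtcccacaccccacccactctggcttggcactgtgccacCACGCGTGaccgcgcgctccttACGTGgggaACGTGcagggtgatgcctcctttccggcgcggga
The window of ALDOA held 1 core, on the strand opposite to the gene, 126 bases before the start. The window of BNIP3 held 5 matches between 117 and 35 bases before the start, of which the pair at 108 and 107 bases is the palindrome CACGTG read on both strands. The window of SLC2A1 held 2, at 61 and 36 bases before the start. The window of HK1 also held 5, the farthest 196 bases before the start and the last at 16 bases after it. Of the 4 genes shown, BNIP3 and SLC2A1 were lowest in BMN and HK1 was lowest at the high dose, while ALDOA has its wide range only through its listed 0 in BMN.

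The 33 genes covered nearly the whole range of expression. PKM, the pyruvate kinase of the last step of glycolysis, was above 99.1% of the shared symbols in each of the 5 libraries, whereas CAR9, the carbonic anhydrase that acidifies the space around hypoxic cells, did not reach a level of 1 in any. The lowest and highest library differed by at least 1 on the log2 scale for 9 of the 33 genes, namely ALDOA, BNIP3, SLC2A1, HK1, HK2, PFKFB4, PFKP, ANKRD37 and VEGFA. Those are 28.1% of the 32 genes that reached a level of 1, and 31.9% of the 12090 symbols that did so had such a range. VEGFA was the member just inside that limit, at 1.001, and GAPDH the one just outside it, at 0.997.

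**Figure D1:**
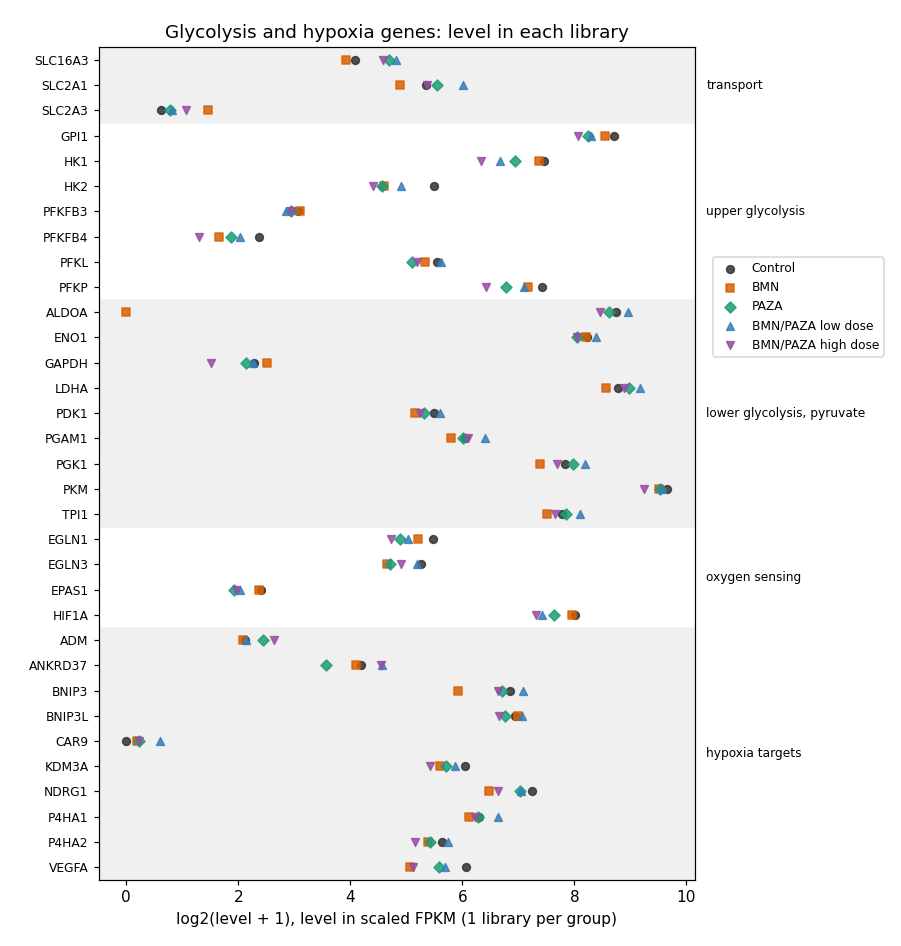
Level of each of the 33 genes in the 5 libraries, as log2(level + 1) with the level in scaled FPKM, in 5 role groups; each point is 1 library. PKM lies at the right in all 5 libraries, CAR9 and SLC2A3 lie at the left, and ALDOA is at 0 in BMN.

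Of the transporters, SLC2A1, the main glucose importer of tumor cells, had levels of 39.8 in Control, 28.6 in BMN, 45.9 in PAZA, 63.7 at the low dose and 40.5 at the high dose. SLC16A3, the exporter of lactate, had levels of 15.8, 14.1, 24.7, 27.1 and 22.9 in the same order. Both were lowest in BMN and highest at the low dose, where their levels were 2.23 times (SLC2A1) and 1.92 times (SLC16A3) those in BMN. Against Control the low dose levels were 1.60 and 1.71 times as high, and SLC16A3 was also 1.56 times as high in PAZA and 1.44 times as high at the high dose. SLC2A3, a second glucose importer and the lowest of the group, had levels of 0.53 in Control, 1.76 in BMN, 0.71 in PAZA, 0.76 at the low dose and 1.09 at the high dose. It was highest in BMN, where SLC2A1 was lowest. In Control SLC2A1 stood 74.7-fold above SLC2A3 and in BMN 16.2-fold, and SLC2A3 is too low for its order to be read closely.

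The upper part of glycolysis, from hexokinase to the enzymes that set fructose bisphosphate, was for the most part lower in the treated libraries than in Control. HK1, the hexokinase of most tissues, had levels of 175 in Control, 164 in BMN, 121 in PAZA, 101 at the low dose and 79.6 at the high dose. HK2, the hexokinase that tumors induce, had levels of 44.1, 23.1, 22.8, 29.1 and 20.2 in that order. Control was the highest library for both, but the next steps differed: HK1 was close to Control in BMN (0.939 times) while HK2 was not (0.525 times).
PFKP, the platelet form of phosphofructokinase, had levels of 171 in Control, 143 in BMN, 109 in PAZA, 137 at the low dose and 84.2 at the high dose. From the table with BMN, the low dose of PFKP would exceed Control, by 0.65 on the log2 scale in place of -0.32. PFKFB4, which makes the activator fructose 2,6-bisphosphate and is a HIF target, had the lowest levels of the group, at 4.17, 2.14, 2.65, 3.09 and 1.45. GPI1, the isomerase between both kinase steps, had the highest, at 417 in Control, 372 in BMN, 302 in PAZA, 312 at the low dose and 268 at the high dose. PFKL, the liver form of phosphofructokinase, stayed between 33.3 in PAZA and 48.3 at the low dose, and PFKFB3, the other kinase of the PFKFB family here, between 6.19 and 7.60. Of the 7 genes of this group, 7 were lower than Control in PAZA, 6 in BMN, 6 at the low dose and 7 at the high dose, with median log2 differences of -0.50, -0.21, -0.34 and -1.01. The medians of all compared symbols were -0.10, 0.10, -0.08 and -0.22, and relative to these 7, 7, 6 and 6 of the 7 genes were lower. With PFKP taken from the table with BMN, 5 of the 7 would be lower at the low dose.

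The enzymes from the aldolase to pyruvate, with LDHA and PDK1, which act on the fate of pyruvate, are grouped here as the lower part, a split of this list and not the textbook one by ATP use. They were mostly lower than Control in BMN and at the high dose, like the upper part, and mostly higher than Control at the low dose. PKM had levels of 809 in Control, 728 in BMN, 736 in PAZA, 755 at the low dose and 601 at the high dose. ALDOA, the aldolase, had 425, a listed 0, 392, 496 and 352 in that order. LDHA, which reduces pyruvate to lactate, ranged from 376 in BMN to 577 at the low dose, and PGK1, the first enzyme of the pathway to yield ATP, from 165 in BMN to 292 at the low dose. TPI1, PGAM1 and PDK1, the last of which inhibits pyruvate dehydrogenase, were likewise lowest in BMN and highest at the low dose, with levels of 181 and 273, 54.4 and 83.2, and 34.6 and 47.8. ENO1, the enolase, moved least of the enzymes named in this paragraph, between 263 and 333. In PAZA 6 of the 9 genes of this group were lower than in Control, with a median of -0.12 against -0.10 for all symbols. At the low dose 7 of the 9 were higher than in Control, with a median of 0.22, and in BMN 8 of 9 were lower, with a median of -0.25 (ALDOA, listed at 0, among them). At the high dose 7 of the 9 were lower than in Control, but relative to the median of all symbols 5 were higher and 4 lower. Without ALDOA, the levels of the group summed to 2104 in Control, 1837 in BMN, 2090.0 in PAZA, 2365 at the low dose and 1847 at the high dose. Those of the upper group summed to 864, 752, 597, 636 and 495, and such sums rest on the most abundant genes, such as PKM and LDHA. The 636 of the low dose includes PFKP at 137, which would be 2 times as high from the table with BMN. The order of the low dose and BMN in the upper sum is thus not settled.

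GAPDH, the dehydrogenase between the aldolase and PGK1, stood apart from its neighbours in the pathway. It had levels of 3.85 in Control, 4.67 in BMN, 3.42 in PAZA, 3.77 at the low dose and 1.84 at the high dose, between the 27.8th and 38.7th percentile of the shared symbols. TPI1 and PGK1, which act just before and just after it, had levels of 219.9 and 227 in Control. Of 9 housekeeping genes, all found, EEF1A1 had the highest level in Control (6002), followed by ACTB (3717), RPLP0 (1169), YWHAZ (384), PPIA (206), HPRT (129), SDHA (61.7), TBP (59.9) and TUBA1B (12.7), and GAPDH was below each of them in all 5 libraries. The gene lies at chr6:125161715-125166467 on the minus strand of GRCm38, and its coding sequence had 161 near-identical copies in the annotation (at least 90% identity over at least 50% of its length). In Control, from the table with PAZA (20236 rows), 61 of those copies were listed and their deposited FPKM summed to 14.8, against 2.11 for GAPDH itself. In BMN, from the table with the low dose (55348 rows), 160 were listed and summed to 9.46 against 2.43. These tables differ in length, so the numbers of listed copies cannot be compared between the libraries. Of the other genes, 10 had such copies, at most 10 of them (LDHA), and in Control GAPDH was the only 1 whose copies summed to more than 15% of its own value. Copies and gene together still stayed far below TPI1 and PGK1, and whether reads that match several copies were dropped was not tested. GAPDH values in these tables are thus uncertain, and its lower level at the high dose (0.478 times Control) rests on values near 1 FPKM.

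**Figure D2:**
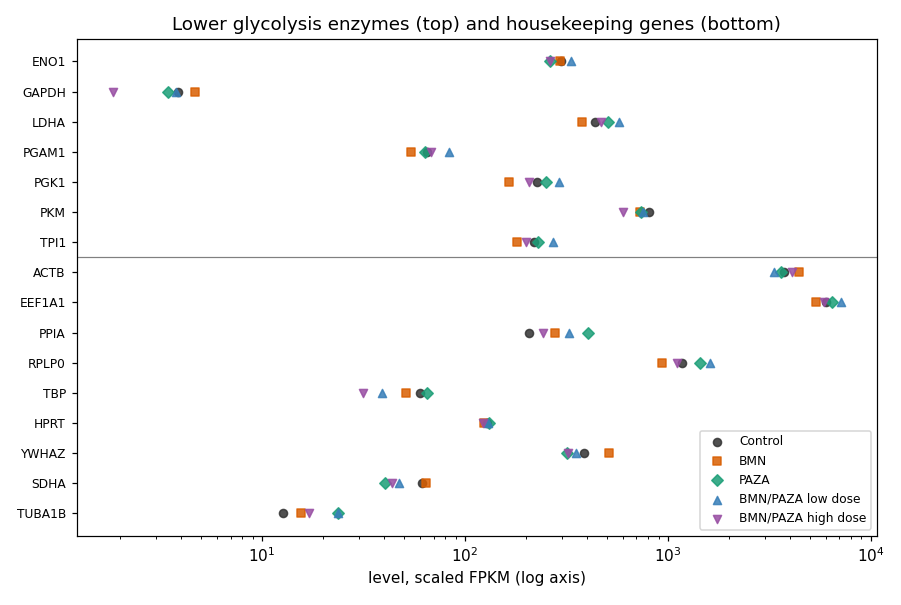
Level in scaled FPKM on a log axis of 7 lower glycolysis enzymes, above the line, and 9 housekeeping genes, below it; each point is 1 of the 5 libraries. GAPDH lies between 1.84 and 4.67, left of every other gene shown.

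At the levels used here, the genes of oxygen sensing were lower than Control in all 4 treated libraries. HIF1A, the oxygen-regulated factor subunit, had levels of 256 in Control, 248 in BMN, 197 in PAZA, 171 at the low dose and 157 at the high dose. From the table with BMN the low dose of HIF1A would be above Control, by 0.39 on the log2 scale in place of -0.58, so its place in this order is not settled. EPAS1, the second factor subunit, known from endothelium, had the lowest levels of the group, at 4.30, 4.17, 2.81, 3.08 and 2.91, between 0.0142 and 0.0185 times the HIF1A level.
EGLN1, the main oxygen sensor, ranged from 43.8 in Control to 25.6 at the high dose, and EGLN3, a sensor that is itself a HIF target, from 37.4 in Control to 24.1 in BMN. The median of the 4 genes was -0.16 in BMN, -0.51 in PAZA, -0.42 at the low dose and -0.57 at the high dose, and all 4 were also below the median of all symbols in each. With the low dose of HIF1A from the table with BMN (0.39), HIF1A would not be below that median at the low dose. The -0.42 would then be smaller in size. EGLN3 at the low dose was only 0.08 lower than Control.

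Among the other hypoxia targets, BNIP3, a mitophagy receptor, had levels of 115 in Control, 59.4 in BMN, 103 in PAZA, 134 at the low dose and 98.2 at the high dose. Its relative BNIP3L had 121, 126, 107, 133 and 99.4, and did not share the low value of BNIP3 in BMN. VEGFA, at chr17:46016993-46032369, had levels of 65.9 in Control, 32.4 in BMN, 47.0 in PAZA, 50.5 at the low dose and 33.6 at the high dose.
NDRG1, a stress gene induced by hypoxia and the highest of the group in Control, had levels of 149.6, 88.0, 130.0, 131 and 98.0. ANKRD37, a small ankyrin repeat protein, had a different order, with 17.3 in Control, 16.2 in BMN, 10.8 in PAZA, 22.8 at the low dose and 22.4 at the high dose. ADM, the vasodilator adrenomedullin, was highest at the high dose, with a range of 3.23 to 5.22. P4HA1 and P4HA2, the prolyl hydroxylases of collagen, ranged from 68.6 to 99.0 and from 34.4 to 52.5, and KDM3A, a histone demethylase, from 42.0 to 65.0. CAR9 was listed at 0 in Control and had levels of 0.14 in BMN, 0.16 in PAZA, 0.52 at the low dose and 0.17 at the high dose. In these libraries VEGFA and NDRG1 were highest in Control, whereas BNIP3, P4HA1, P4HA2 and ANKRD37 were highest at the low dose.

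The 4 treated libraries were each set against Control, which they share, and the counts below are therefore not independent of each other. In PAZA, 31 genes were compared, none was 2-fold higher (4.23% of all 11465 compared symbols were) and none was 2-fold lower (4.3% were). In all, 25 were lower and 6 higher, namely SLC16A3, ADM, LDHA, SLC2A1, PGK1 and TPI1, where 41.9% of all symbols were higher. The median was -0.18 against -0.10 for all symbols, and relative to the latter 8 were higher and 23 lower. The lowest were HK2 (-0.92) and PFKP (-0.64). With PAZA from its table with the low dose, PFKP would be at -0.38 and HIF1A at -0.64 in place of -0.37.
In BMN, none of 32 was 2-fold higher (5.52% of 11580 symbols were) and 2 were 2-fold lower (2.67% were), VEGFA at -1.001 and ALDOA, listed at 0. In all, 28 were lower, with BNIP3 at -0.94, HK2 at -0.90 and NDRG1 at -0.76 next, and the 4 that were higher were SLC2A3, GAPDH, BNIP3L and PFKFB3 (60.3% of all symbols were higher). Their median was -0.23 where the median of all symbols was 0.10, and 30 of the 32 lay below the latter. BMN was also the library highest in fibroblast and keratin markers, as given above, and the part of these in the result was not tested. The high dose library had similar muscle marker RNA (184 against 165).
At the low dose, none of 31 was 2-fold higher (4.4% of 11490 symbols were) or 2-fold lower (4.26% were). Of the 31, 16 were higher and 15 lower (43.6% of all symbols were higher), and the median was 0.03 against -0.08 for all. The highest were SLC16A3 (0.74) and SLC2A1 (0.66), and the lowest HK1 (-0.79), HK2 (-0.58) and HIF1A (-0.58, of the opposite sign in another table as given above).
At the high dose, none of 32 was 2-fold higher (3.83% of 11422 symbols were) and 4 were 2-fold lower (5.93% were), namely HK1 (-1.13), HK2 (-1.09), PFKFB4 (-1.08) and PFKP (-1.01), all of the upper group. The median was -0.32 against -0.22 for all symbols, and relative to the latter 12 were higher and 20 lower. With the median of all symbols set to 0, none of the 4 stayed 2-fold lower. In that scaling 4 were 2-fold lower in BMN, HK2, ALDOA, BNIP3 and VEGFA.

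**Figure D3:**
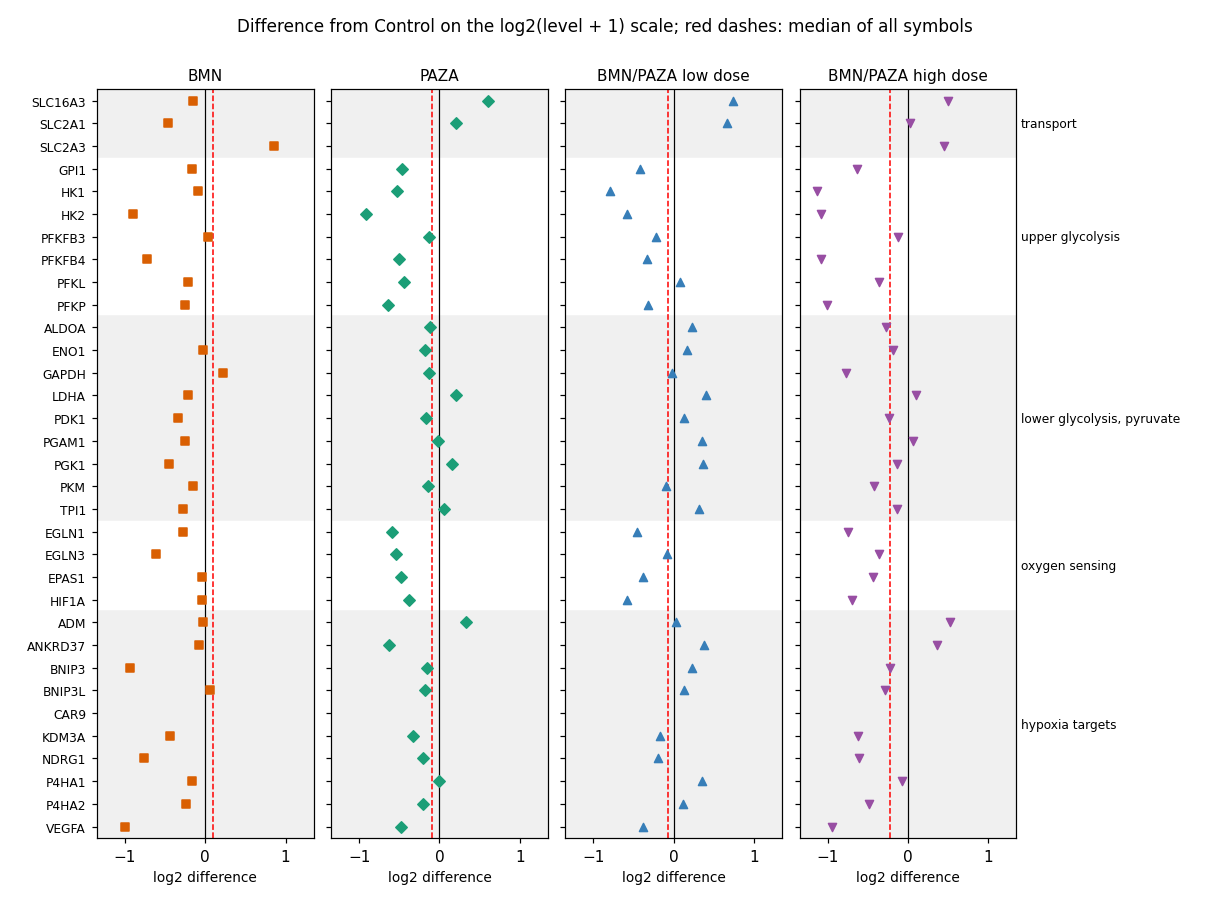
Difference from Control in log2(level + 1) for each gene in the 4 treated libraries, with the median of all compared symbols as a red dashed line. Most BMN points lie left of that line. Of the 32 genes compared in BMN 30 were below it, among them ALDOA, which is listed at 0 in BMN and is not drawn there. Genes under a level of 1 in both libraries are not drawn either.

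The combined treatment was then set against its parts. The supplement of the publication names 0.25 mg/kg for the BMN and PAZA groups, while the labels give no amount. If those doses apply, the high dose of 2 mg/kg differed from BMN in the amount of BMN673 as well as in PAZA. At the low dose against BMN, 3 of 32 genes were 2-fold higher (3.83% of 11686 symbols were) and none was 2-fold lower (6.96% were). They were BNIP3 (1.16), SLC2A1 (1.13) and ALDOA, which was listed at 0 in BMN. In the table that holds both libraries ALDOA was at 0 at the low dose as well, and with that column 2 genes were 2-fold higher. All 9 compared hypoxia targets were higher at the low dose, with a median of 0.46, and so were 8 of the 9 lower glycolysis genes (ALDOA among them), with a median of 0.59. HK1 (-0.70), SLC2A3 (-0.65) and HIF1A (-0.54) were the genes most below BMN. With the low dose from the table with BMN, HIF1A would be above BMN by 0.44, and PFKP by 0.91 in place of -0.06. The median of all 32 was 0.34, whereas that of all symbols was -0.18. The summed keratin (1.85 against 158), muscle (11.2 against 165) and fibroblast markers (296 against 774) were lower at the low dose than in BMN, and their part in the result was not tested.
At the high dose against BMN, 1 of 32 was 2-fold higher (2.74% of 11593 symbols were), ALDOA, and 1 was 2-fold lower (8.11% were), HK1 at -1.04. With the median of all symbols set to 0, HK1 was no longer 2-fold lower and BNIP3 was 2-fold higher beside ALDOA. The median of the genes then went from -0.16 to 0.19. All 7 upper glycolysis genes were lower, but relative to the median of all symbols (-0.31) 3 were higher and 4 lower, while 8 of 9 hypoxia targets were higher.
At the low dose against PAZA, 1 of 31 was 2-fold higher (2.95% of 11532 symbols were), ANKRD37 at 1.01, and none was 2-fold lower (3.35% were). In all, 27 of 31 were higher at the low dose (52.8% of all symbols were), by a median of 0.21 against 0.03 for all symbols, and the 4 that were lower were ADM, HK1, HIF1A and PFKFB3. With the columns of the table that holds both libraries, ANKRD37 did not reach 2-fold and HIF1A was higher at the low dose by 0.89.

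Both doses of the combination were compared as the last pair. None of 32 genes was 2-fold higher at the low dose (4.12% of 11469 symbols were) and none was 2-fold lower (2.85% were). Still, 29 of the 32 were higher at the low dose, with a median of 0.39, against 65.8% of all symbols and a median of 0.14. The largest differences were those of GAPDH (0.75), PFKFB4 (0.74), PFKP (0.69), SLC2A1 (0.64) and P4HA2 (0.60), and the genes lower at the low dose were ADM (-0.50), SLC2A3 (-0.25) and PFKFB3 (-0.10). With the median of all symbols set to 0, 26 of the 32 were higher. With the low dose from the table with BMN, PFKP (1.66) and HIF1A (1.09) would be 2-fold higher and ALDOA, then listed at 0, 2-fold lower. By sum, the high dose library also held the most muscle and neutrophil marker RNA (184 against 11.2 and 233 against 122 at the low dose), and their part in the difference was not tested. The neutrophil sum rested mostly on S100A8 and S100A9 (132 and 93.2 at the high dose). RETNLG was also highest there (1.18), but CSF3R was lowest there (2.64) and CXCR2 was highest in BMN (5.00).

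Ratios of 2 genes within a library do not depend on the scaling. The ratio of HK2 to HK1 was 0.252 in Control, 0.141 in BMN, 0.189 in PAZA, 0.289 at the low dose and 0.254 at the high dose. BNIP3 over BNIP3L was 0.946, 0.470 (BMN), 0.959, 1.01 and 0.989 in that order, so BMN alone was apart. LDHA over HK1, the last step against the first, was 2.50 in Control and 2.29 in BMN but 4.17 in PAZA, 5.74 at the low dose and 5.91 at the high dose. PGK1 over GPI1, another pair of a lower and an upper enzyme, was 0.544, 0.444, 0.836, 0.936 and 0.769. In both of these ratios, which were chosen after their values were seen, the 3 libraries with PAZA were above the other two. Over all 56 pairs of 8 lower (without ALDOA) and 7 upper genes, which share genes and libraries, this held for 38, the reverse for 0 and neither for 18. The 38 included 7 of the 7 pairs with LDHA, PGK1 or TPI1 each, but 3 with PKM, 3 with ENO1 and 0 with GAPDH. They also included 7 pairs with PFKP, among them those with LDHA, PGK1 and TPI1. With the low dose of PFKP from the table with BMN (0.65 above Control), these 7 would not hold. At the low dose no lower gene was more than 0.40 (LDHA) above Control. EGLN3 over EGLN1 was 0.854, 0.670, 0.883, 1.11 and 1.13, lowest in BMN. PFKFB4 over PFKFB3 was 0.566 in Control and lower in the others, 0.281, 0.397, 0.499 and 0.216. The ratio of PFKL to PFKP was 0.268, 0.276, 0.306, 0.354 and 0.421, of which the third and the fourth carry the uncertainty of PFKP.

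**Figure D4:**
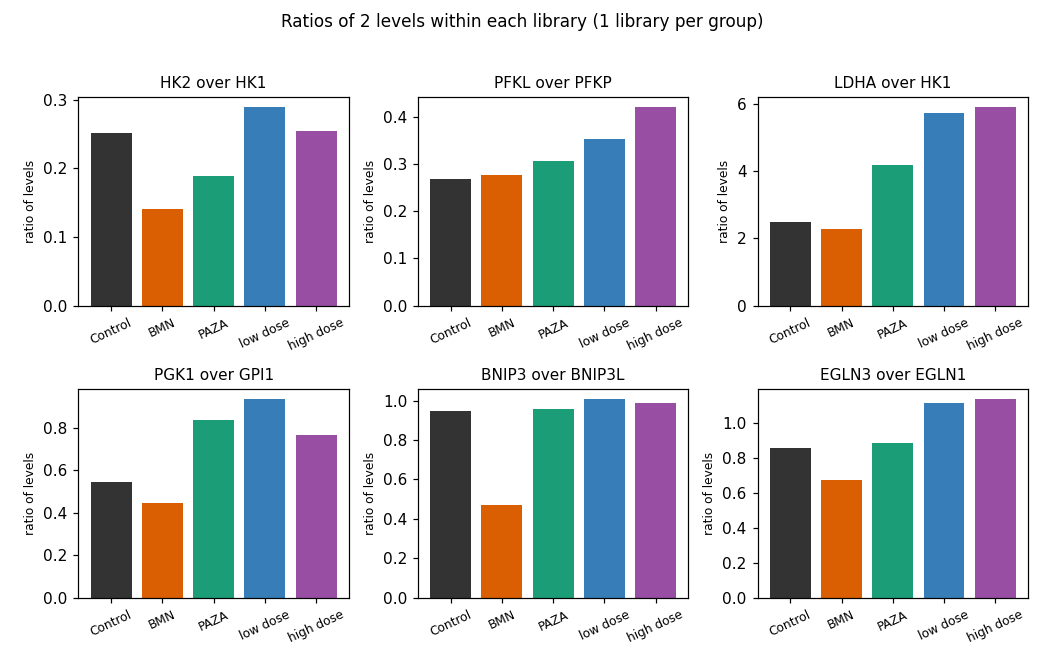
Ratio of the levels of 2 genes within each library, 1 bar per library from 0. LDHA over HK1 is 4.17 to 5.91 in the libraries with PAZA and 2.29 to 2.50 in the others, and BNIP3 over BNIP3L is lowest in BMN (0.470).

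Of the 31 genes above 0 in all 5 libraries, 13 had their lowest level in BMN (41.9%, against 10.8% of 11571 symbols) and 13 at the high dose (41.9%, against 35.9%). The highest level was at the low dose for 14 (45.2%, against 17.7%) and in Control for 13 (41.9%, against 21.9%). With each library moved to a median log2 ratio of 0 against Control, 18 were lowest in BMN (against 21.5% of symbols) and 6 at the high dose (against 17.0%), and 13 each were highest at the low dose and in Control (against 19.2% and 21.7%). The share lowest in BMN thus did not rest on the scaling, whereas that at the high dose did. The 18 included HK2, LDHA, PGK1, SLC2A1, SLC16A3, BNIP3, VEGFA and NDRG1.

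**Figure D5:**
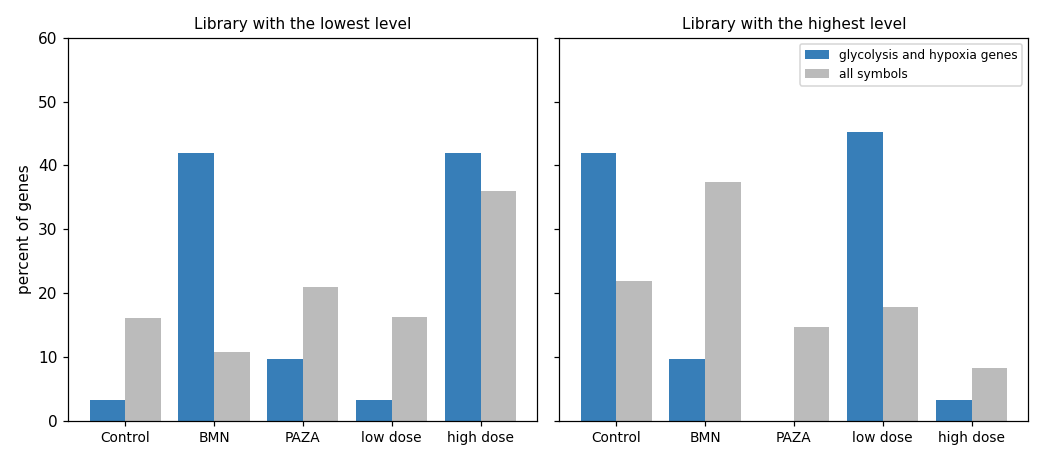
Percent of the 31 glycolysis and hypoxia genes above 0 in all libraries (blue) and of all such symbols (grey) with the lowest level, left, or the highest level, right, in each library. BMN is the lowest library for 41.9% of the genes and for 10.8% of all symbols.

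Other genes of both pathways were read from lists that do not overlap with the 33. Of 24 further glycolysis genes 19 were found, and of 32 further hypoxia genes 30. Of the further glycolysis genes, 10 of 18 compared were higher in BMN than in Control and 8 lower, with a median of 0.21 against 0.10 for all symbols. At the low dose against BMN, 12 of these 18 were lower, with a median of -0.18 against -0.18 for all symbols, whereas that of the 32 compared of the 33 was 0.34. In BMN against Control, 3 of the 18 were 2-fold higher (5.52% of all symbols were), the mitochondrial pyruvate carrier subunit MPC2 (24.8 to 80.8), PFKFB2 (2.26 to 6.97) and PDK4 (0 to 3.53), and 2 were 2-fold lower (2.67% of all symbols were), the enolase ENO2 (2.09 to 0.282) and PFKFB1 (3.53 to 0.847). Of 29 hypoxia genes 20 were lower in BMN, with a median of -0.09. Of the 29, HILPDA, a lipid droplet protein, was 2-fold lower (13.4 to 5.60), and NDUFA4L2 (1.30 to 3.83) and PPP1R3C (0 to 1.30) were 2-fold higher. HILPDA thus had its lowest level in BMN, with 25.1 in PAZA, 20.8 at the low dose and 19.6 at the high dose, as did BNIP3 and SLC2A1.
In PAZA, 2 of 16 further glycolysis genes were 2-fold higher (4.23% of all symbols were), PGAM2 (0 to 1.46) and PFKFB2 (to 5.66), and none was 2-fold lower (4.3% were). Of 28 hypoxia genes 1 was 2-fold higher there, LOX, the collagen cross-linking oxidase (9.62 to 24.6), and 2 were 2-fold lower, TXNIP, which restrains glucose uptake (124 to 48.7), and NDUFA4L2 (1.30 to 0). At the low dose, 1 of 16 glycolysis genes, LDHB (0.415 to 2.42), and 1 of 28 hypoxia genes, VHL, the ubiquitin ligase subunit that binds hydroxylated HIF1A (4.43 to 11.6), were 2-fold higher (4.4% of all symbols were) and none was 2-fold lower (4.26% were). At the high dose, 1 of 16 glycolysis genes, PGAM2 (0 to 3.39), and 1 of 29 hypoxia genes, PPP1R3C (0 to 1.10), were 2-fold higher (3.83% of all symbols were), and 2 of the 29, CAR12 (4.74 to 1.41) and KDM4B (11.1 to 4.46), were 2-fold lower (5.93% were). PGAM2 is the muscle form of the mutase. It was listed at 0 in Control and at the low dose, where the muscle markers summed to 7.88 and 11.2, and its level was 1.46 in PAZA (52.5), 0.308 in BMN (165) and 3.39 at the high dose (184). The part of muscle RNA in its level was not tested. The medians of the further hypoxia genes against Control lay between -0.18 (high dose) and -0.09, and at the low dose against the high dose 24 of 29 were higher, with a median of 0.22 against 0.14 for all symbols.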

How the data were processed

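RNA of 5 mouse libraries, 1 per group, was measured by sequencing. The submitters' processing notes name HISAT2, StringTie and GRCm38; versions and counting settings are not given in the sources used here. The authors deposited 5 tables of 2 groups each with values read as FPKM, that is, normalized to gene length and library size. The tables name no unit. No counts were given, so no count test was possible and depth is unknown.

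Levels of Control and PAZA came from the table of that pair, those of BMN and the high dose from theirs, and the low dose from its table with the high dose. The row of highest mean was kept per symbol. Each column was scaled to 1000000 over the 13979 shared symbols, and log2(level + 1) was compared where a level reached 1. Samples were grouped by their labels. Alternatives were a pseudocount of 0.1, no filter, scaling to a median difference of 0, columns from other tables, and leaving out ALDOA, HIF1A and PFKP, the last chosen after seeing the data. Genes given in every library were those with a range of at least 1 (log2), GAPDH, and the highest and lowest of each role group; further pathway genes were named where 2-fold apart from Control. Copies of coding sequences were found with blastn 2.17.0, coordinates came from GENCODE M21, and Python 3.11.15 with pandas 2.3.3 was used. The steps were tested on simulated data. A further housekeeping gene is not reported here. The genes and lists were chosen with earlier results of these data known.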

Additional observations from a re-analysis of the deposited data

How the results depend on the processing

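A count was taken as moved where it left a range of 1.5 times its reported value, and a median where it moved by over 0.1 (log2). For 24 values (the counts of genes 2-fold higher and lower and the median, in 8 comparisons), dropping the filter on low levels moved none. A pseudocount of 0.1 moved 4: 1 gene was 2-fold higher in BMN than in Control (SLC2A3), 1 lower at the low dose than in BMN (SLC2A3), 2 lower at the high dose than in BMN (HK1, GAPDH) and 1 higher at the low than at the high dose (PFKFB4); within the range, the count lower at the high dose than in Control went from 4 to 5 (GAPDH). Scaling to a median difference of 0 moved 12. The medians against Control became -0.0748 (PAZA), -0.336 (BMN) and -0.0777 (high dose), those against BMN 0.515 (low dose) and 0.191 (high dose), and that of the low against the high dose 0.236. Counts became 4 lower in BMN and 0 lower at the high dose against Control, 5 higher at the low dose, 2 higher and 0 lower at the high dose against BMN, and 0 higher at the low dose against PAZA. The median of the high dose against BMN changed sign there, from -0.16. Columns from other tables moved 4 of 15: 1 lower at the low dose against Control (ALDOA), 0 higher at the low dose against PAZA, and 2 higher (PFKP, HIF1A) and 1 lower (ALDOA) at the low against the high dose. Within the range, the count higher at the low dose than in BMN went from 3 to 2 (without ALDOA). The cause was not tested. Without ALDOA, HIF1A and PFKP, 1 gene was lower in BMN than in Control and 0 were higher at the high dose than in BMN, and within the range 3 in place of 4 were lower at the high dose than in Control and 2 in place of 3 higher at the low dose than in BMN. No paired analysis was possible because no group had a second library; for that reason no replicate could be left out either.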
